A study of Homo sapiens with 4 samples.

Results

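GATA3 occupancy was examined at 10 genes that encode WNT ligands: WNT3, WNT3A, WNT4, WNT5A, WNT5B, WNT6, WNT7A, WNT8A, WNT10A and WNT11. They are 10 of the 20033 protein-coding genes on the chromosomes of hg38 in GENCODE release 44. They were listed by name, without a measured value, though with earlier results of these data known. H1 human embryonic stem cells (hESCs), an established pluripotent line kept on Matrigel in mTeSR1 medium, had received BMP4 at 50 ng/ml for 6 h in all 4 samples of the study. These were 2 GATA3 ChIP replicates, which the methods call biological, and 2 input chromatin samples. Every GATA3 sample was treated, so no value here separates a BMP4 response from binding that was already there. A peak list holds no expression level, so neither the identity of the cells nor the activity of the WNT genes could be checked against marker genes.

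Each list gave 1 base position per peak, 18456 on the chromosomes in replicate 1 and 12782 in replicate 2, with no height, width or q-value. A position was taken for a gene when it lay within 100 kb of the 5′ end of the gene, inside the gene body, or carried the gene's symbol in the authors' list. Where the replicates had positions no more than 100 bp apart, these were joined into a shared region, which gave 9145 regions in all. Read depth is unknown from these lists, so a gene with no position had no called peak, which is not a measured absence of GATA3.

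WNT ligands are secreted, lipid-modified glycoproteins that act over short distances on Frizzled receptors. Canonical ligands also engage LRP5 or LRP6 and stabilise β-catenin, which works with TCF/LEF factors on target genes. Noncanonical ligands act through ROR, RYK and Frizzled receptors on cell polarity, movement and calcium, and the border between the classes depends on the receptors present. In the gastrulating mouse embryo BMP signalling lies upstream of WNT3 at the primitive streak. GATA3 is a zinc finger factor that binds the core sequence GATA and is induced early by BMP4 in hESCs.

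Of the 10 ligand genes, 7 had at least 1 shared GATA3 region: WNT3, WNT6, WNT8A and WNT10A among 6 canonical ligands, and WNT5A, WNT5B and WNT11 among 4 noncanonical ligands. By the same rule 47.7% of all protein-coding genes had one. WNT3 had 3 shared regions, a count reached by 5.94% of protein-coding genes and exceeded by 2.10%. The other 6 genes had 1 each, and WNT6 and WNT10A, which are neighbours on chromosome 2, had the same one. The 7 genes therefore rested on 8 distinct regions. WNT3A and WNT7A had no position in either replicate, and WNT4 had 1 in replicate 2 only.

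The plus-strand hg38 sequence of these 8 regions, 200 bp around the centre of each, is given because the binding sequence of GATA3 can be read in it directly. Capitals mark every AGATAA or AGATAG or TGATAA or TGATAG on either strand, called GATA sequences below, so that a site on the minus strand reads TTATCT or CTATCT or TTATCA or CTATCA. Each region is named by its gene and its distance from the 5′ end of that gene, positive in the direction of transcription.
WNT3 -26.9 kb, chr17:46859978-46860177: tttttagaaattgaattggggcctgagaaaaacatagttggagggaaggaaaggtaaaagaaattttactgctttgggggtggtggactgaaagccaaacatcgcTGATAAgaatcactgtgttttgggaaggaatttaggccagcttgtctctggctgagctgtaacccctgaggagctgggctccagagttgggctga
WNT3 +10.7 kb, chr17:46822368-46822567: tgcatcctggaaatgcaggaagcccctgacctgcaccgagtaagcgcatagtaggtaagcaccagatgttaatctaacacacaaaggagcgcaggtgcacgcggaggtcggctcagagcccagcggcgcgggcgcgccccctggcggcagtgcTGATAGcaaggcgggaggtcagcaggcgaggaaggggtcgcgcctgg
WNT3 +47.2 kb, chr17:46785867-46786066: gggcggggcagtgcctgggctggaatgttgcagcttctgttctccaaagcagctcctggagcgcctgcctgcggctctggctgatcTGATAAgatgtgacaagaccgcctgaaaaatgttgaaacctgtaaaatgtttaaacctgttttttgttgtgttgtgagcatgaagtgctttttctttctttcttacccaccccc
WNT6 -3.29 kb, chr2:218856412-218856611: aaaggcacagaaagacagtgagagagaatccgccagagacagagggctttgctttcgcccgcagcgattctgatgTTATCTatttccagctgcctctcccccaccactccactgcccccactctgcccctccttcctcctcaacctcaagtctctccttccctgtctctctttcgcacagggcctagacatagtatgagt
WNT8A +11.7 kb, chr5:138095555-138095754: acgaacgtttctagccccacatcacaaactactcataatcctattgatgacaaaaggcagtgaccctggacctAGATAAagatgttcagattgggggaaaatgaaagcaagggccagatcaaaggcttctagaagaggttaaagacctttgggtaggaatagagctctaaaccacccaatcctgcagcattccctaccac
WNT5A -51.0 kb, chr3:55541445-55541644: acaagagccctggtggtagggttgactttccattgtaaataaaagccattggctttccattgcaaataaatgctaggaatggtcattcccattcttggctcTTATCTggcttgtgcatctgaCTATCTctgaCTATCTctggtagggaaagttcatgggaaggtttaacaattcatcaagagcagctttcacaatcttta
WNT5B +99.9 kb, chr12:1629687-1629886: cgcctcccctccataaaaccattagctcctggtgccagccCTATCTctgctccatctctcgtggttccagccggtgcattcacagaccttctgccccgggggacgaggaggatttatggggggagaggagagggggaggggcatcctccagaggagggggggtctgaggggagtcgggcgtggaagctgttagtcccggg
WNT11 +78.9 kb, chr11:76131744-76131943: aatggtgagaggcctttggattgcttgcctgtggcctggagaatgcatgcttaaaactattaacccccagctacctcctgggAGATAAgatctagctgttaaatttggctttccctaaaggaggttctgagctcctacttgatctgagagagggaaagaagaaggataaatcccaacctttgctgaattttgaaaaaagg

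The first question was where the positions of the replicates lay at each ligand gene, beginning with the canonical ligands. WNT3, which is required for the primitive streak in the mouse, spans 46762506 to 46833154 on chromosome 17, on the minus strand. Replicate 1 had 8 positions in range, at -33.5, -26.9, 10.7, 13.1, 13.8, 16.5, 47.2 and 60.6 kb from the 5′ end. Replicate 2 had 5, at -27.0, 10.7, 13.5, 47.2 and 60.7 kb. Both replicates thus marked the same 3 places, while the remaining positions differed by more than 100 bp. Of the 8 positions in replicate 1, 37.5% were in shared regions, and of the 5 in replicate 2, 60.0%.

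The 3 shared regions of WNT3 differed in setting. The region at 46822443 in replicate 1 and 46822492 in replicate 2 lay inside the long gene model but 3.78 kb upstream of the canonical transcript start at 46818692. The region at 46785963 and 46785969 lay in intron 1 of the canonical transcript, 32.7 kb downstream of that start, and its positions were 6 bp apart. The region at 46860044 and 46860111 lay in intron 1 of WNT9B, the neighbouring ligand gene that is transcribed in the other direction. Its distance from the 5′ end was 26.9 kb for both genes, slightly less for WNT9B, and the authors' lists named WNT9B there.

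Around the canonical WNT3 start the positions coincided less. Within 4 kb of it replicate 1 had 4 positions over 5749 bp, and replicate 2 had 2. The closest pair not counted as shared there was 46819377 in replicate 1 and 46819623.5 in replicate 2, which were 246.5 bp apart and lay at -0.685 and -0.932 kb from the start. A further pair in intron 2, 46772588 and 46772464.5, was 123.5 bp apart, just outside the limit, and had a GATA sequence in neither window. The remaining positions of replicate 1, at 46816694, 46820091 and 46866658, had none of replicate 2 within 400 bp.

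WNT6 and WNT10A lie in tandem on the plus strand of chromosome 2, WNT6 from 218859805 to 218874233 and WNT10A, known for its role in teeth and other ectodermal appendages, from 218880852 to 218899581. Each replicate had 1 position, 218856509 in replicate 1 and 218856513 in replicate 2, 4 bp apart. It was intergenic, 3.29 kb upstream of WNT6 and 24.3 kb upstream of WNT10A. This was the shared region closest to the 5′ end of any of the 10 genes, and the lists named WNT6.

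WNT8A, an early embryonic ligand, spans 138083990 to 138092365 on the plus strand of chromosome 5. Each replicate had 1 position, 138095675 in replicate 1 and 138095633.5 in replicate 2, 41.5 bp apart. The region was intergenic, 11.7 kb from the 5′ end and 3.29 kb past the 3′ end, and the 5′ end of WNT8A was the nearest of any protein-coding gene. The next shared region was 287 kb away.

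WNT3A, a ligand of the tailbud and paraxial mesoderm, and WNT7A, a ligand of limb and reproductive tract development, had no position within 100 kb in either replicate. From the 5′ end of WNT3A at 228006998 on chromosome 1, the nearest position was 199 kb away in replicate 1 and 284 kb in replicate 2, and the nearest shared region 622 kb. From that of WNT7A at 13880071 on chromosome 3, the distances were 128 kb in replicate 1, 265 kb in replicate 2 and 265 kb for a shared region.

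**Figure D1:**
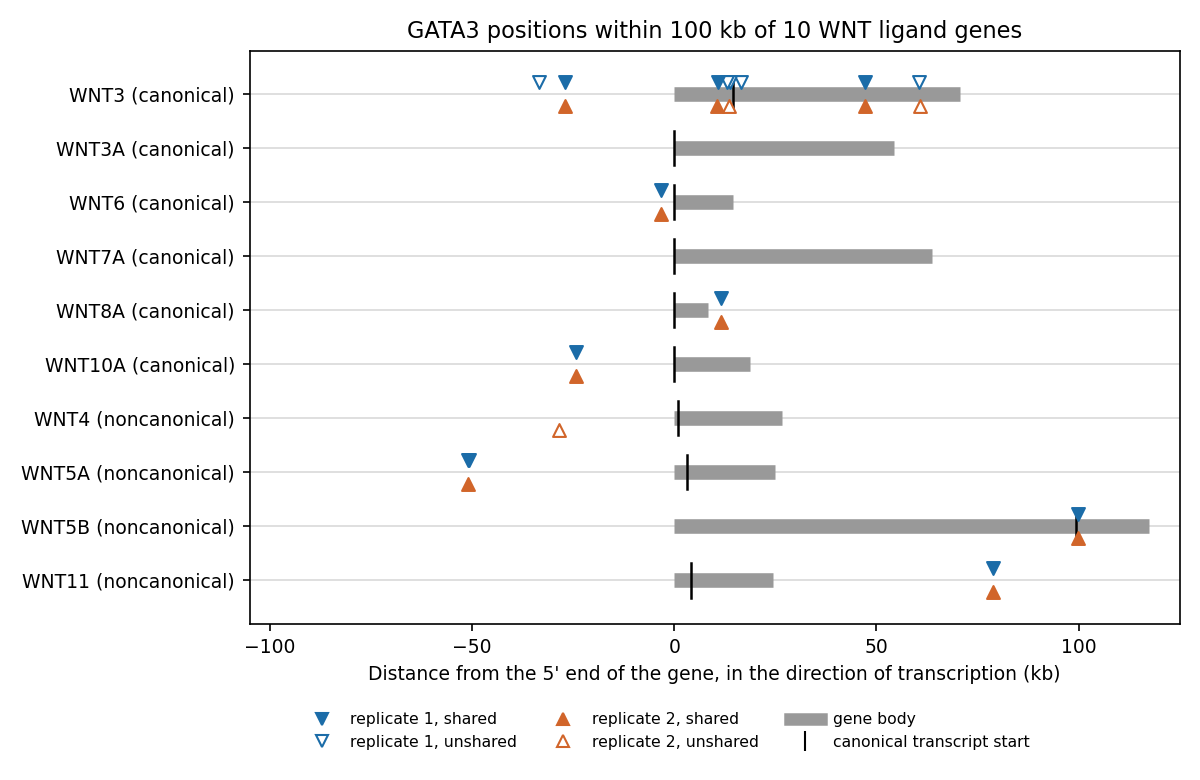
GATA3 positions of each replicate at the 10 ligand genes, plotted by distance from the 5′ end of the gene (kb, in the direction of transcription), with filled symbols for positions in shared regions, grey bars for gene bodies and a black line for the canonical transcript start. WNT3 has 8 positions in replicate 1 and 5 in replicate 2, WNT3A and WNT7A have 0, and the unshared WNT5A position of replicate 1 is hidden by its shared neighbour 309 bp away.

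Among the noncanonical ligands, WNT5A, which acts through ROR2 in convergent extension and limb outgrowth, spans 55465715 to 55490539 on the minus strand of chromosome 3. Replicate 1 had 2 positions, at 55541192 and 55541501, and replicate 2 had 1, at 55541587. The latter 2 were 86 bp apart, just inside the limit of 100 bp, and formed a region 51.0 kb upstream of WNT5A, in intron 17 of ERC2. The 5′ end of WNT5A was the nearest of any protein-coding gene. The authors' lists named the noncoding gene RP11-875H7.5 instead.

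WNT5B, a close relative of WNT5A, spans 1529891 to 1647212 on the plus strand of chromosome 12. Each replicate had 1 position, 1629796 in replicate 1 and 1629776 in replicate 2, 20 bp apart. They lay 99.9 kb from the 5′ end of the gene, just inside the limit of 100 kb, but also in the gene body. The canonical transcript starts far inside the gene, at 1629231, and the region was 0.555 kb downstream of that start, in its intron 1, and 0.111 kb from the start of a further WNT5B transcript at 1629897. By 5′ ends of genes alone FBXL14 was nearest, at 35.2 kb, and the lists named MIR3649.

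WNT11, which acts in convergent extension and in heart development, spans 76186325 to 76210736 on the minus strand of chromosome 11. Each replicate had 1 position, 76131845 in replicate 1 and 76131841 in replicate 2, 4 bp apart. The region lay 78.9 kb downstream of the 5′ end and 54.5 kb past the 3′ end, in intron 14 of the autophagy gene UVRAG. The 5′ end of WNT11 was still the nearest of any protein-coding gene, and the lists named the noncoding gene CTD-2011F17.2.

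WNT4, which acts in kidney and female reproductive tract development, spans 22117313 to 22143969 on the minus strand of chromosome 1. Replicate 1 had 0 positions and replicate 2 had 1, at 22172476, which was intergenic and 28.5 kb upstream. The nearest position of replicate 1 to it was 92.7 kb away, and the nearest shared region to the 5′ end of WNT4 was at 118 kb. Any position of replicate 1 in range was found at 68.7% of protein-coding genes, against 7 of the 10 ligand genes, and of replicate 2 at 57.3%, against 8 of 10. The 200 bp window of the WNT4 position is shown because it held 2 GATA sequences although 1 replicate alone had called it, and that of the displaced WNT3 position of replicate 2 because it was the only one of its pair with a GATA sequence.
WNT4 -28.5 kb, chr1:22172377-22172576: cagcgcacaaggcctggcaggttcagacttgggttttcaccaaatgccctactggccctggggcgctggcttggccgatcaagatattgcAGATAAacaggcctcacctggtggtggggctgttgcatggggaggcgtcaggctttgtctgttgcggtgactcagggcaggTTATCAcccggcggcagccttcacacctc
WNT3 +13.5 kb, chr17:46819524-46819723: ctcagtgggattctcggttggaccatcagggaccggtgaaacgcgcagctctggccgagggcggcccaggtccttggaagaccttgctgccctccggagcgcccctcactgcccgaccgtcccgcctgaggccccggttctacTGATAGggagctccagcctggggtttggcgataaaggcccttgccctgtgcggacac

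**Figure D2:**
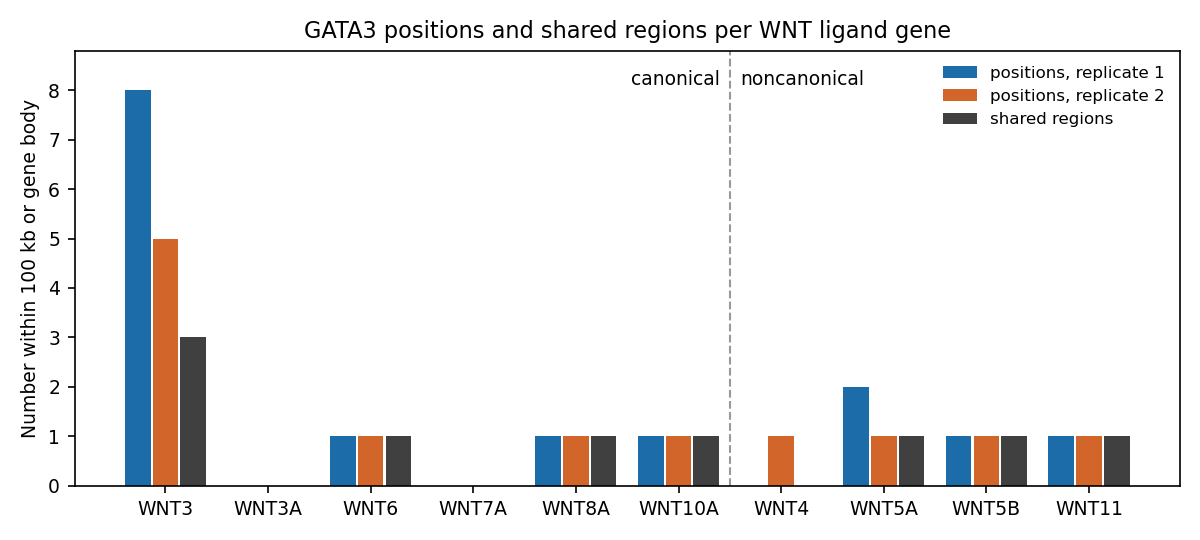
Number of GATA3 positions in each replicate and of shared regions (vertical axis, count) at each ligand gene, with canonical ligands left of the dashed line and noncanonical ligands right of it. WNT3 stands highest in both replicates, with 8 and 5 positions and 3 shared regions, and every other gene has 2 or fewer.

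The 10 genes together had 14 distinct positions in replicate 1 and 11 in replicate 2. Of these, 57.1% (95% Wilson interval 32.6 to 78.6) of replicate 1 and 72.7% (43.4 to 90.3) of replicate 2 were in shared regions. Over all positions the shares were 49.6% and 71.5%, both inside these intervals. The intervals treat positions as independent, although WNT3 alone held 8 of the 14 and 5 of the 11, so they are no test. The replicates were 4 to 86 bp apart at the 8 regions, with a median of 30.8 bp, against a median of 23 bp (quartiles 11 and 43) over all shared regions.

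The second comparison was between canonical and noncanonical ligands. Of the canonical ligands 4 of 6 (66.7%) had a shared region and of the noncanonical ligands 3 of 4 (75%), a difference of -8.33 percentage points. The mean was 1 region per canonical gene (range 0 to 3) and 0.75 per noncanonical gene (range 0 to 1). Genes are not replicates and the members were chosen with earlier results known, so no test was made. The order of the classes was not stable: with genes limited to 50 kb, or the gene body, 4 of 6 canonical and 1 of 4 noncanonical genes had a region (5 of 10 in all, against 33.0% of protein-coding genes), and with WNT4 counted as canonical the mean was 0.857 against 1.

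Within the limit of 100 kb the classes also differed in distance from the 5′ end, which was not tested. All 5 regions of canonical ligands lay within 50 kb of it, between 3.29 and 47.2 kb, and all 3 of noncanonical ligands lay beyond, between 51.0 and 99.9 kb. The ranges did not overlap, but they rested on 8 regions and on the limit of 100 kb. With a limit of 200 kb the mean rose to 2.5 regions per canonical gene and 1.5 per noncanonical gene. Canonical ligands thus also had regions beyond 100 kb, farther than any of these 3 noncanonical regions. From canonical transcript starts the WNT5B region, at 0.555 kb, was the closest of all. By distance alone, 0 of the 10 genes had a region within 2 kb, where 3.6% of protein-coding genes had one. Within 20 kb there were 3 of 10 (30.0%) against 13.8%, and within 50 kb 4 of 10 (40%) against 27.2%. Within 100 kb there were 7 of 10 against 45%, and within 200 kb 8 of 10 against 67.7%. With the gene body and the authors' symbols added, a limit of 10 kb gave 4 of 10 against 21.5%. With no limit of distance, 6 of 10 ligand genes had the nearest 5′ end of some shared region against 25.2% of all. These included WNT4, whose nearest shared region was at 118 kb.

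**Figure D3:**
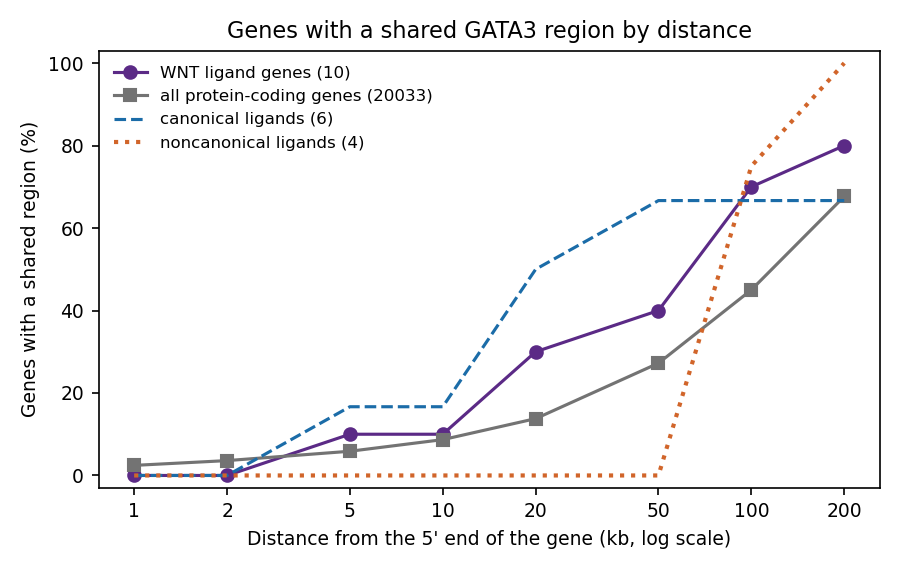
Share of genes (%) with a shared region against distance from the 5′ end (kb, log scale) for the 10 ligand genes, the 6 canonical and 4 noncanonical ligands, and all 20033 protein-coding genes, without the gene body or symbols. Canonical ligands stay at 66.7% from 50 kb on, noncanonical ligands rise from 0 at 50 kb to 75% at 100 kb, and the protein-coding share rises from 2.45% at 1 kb to 67.7% at 200 kb.

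The rule used no sequence, so the next question was what the bound DNA held. All 8 regions had at least 1 GATA sequence in their 200 bp (95% Wilson interval 67.6 to 100.0%), against 82.0% of all shared regions. There were 10 sites in the 8 regions, 4 of them AGATAA, 3 AGATAG, 2 TGATAA and 1 TGATAG. Of the sites in all shared regions 48.3% were AGATAA, 18.3% were AGATAG, 26.0% were TGATAA and 7.43% were TGATAG. The density was 6.25 sites per kb in the central 200 bp and 1.94 per kb in the flanks out to 1000 bp of the same regions. Density was not computed over all shared regions, so this contrast is not shown to be particular to the ligand genes. Among unshared positions at the ligand genes, a GATA sequence was within the 200 bp of 3 of 6 in replicate 1, against 72.9% of all unshared positions of that replicate, and of 2 of 3 in replicate 2, against 67.0%.

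The sites lay close to the centre in 6 of the 8 regions, with the middle of the nearest between 4.5 and 23.5 bp away, and within 25 bp of the centre in 52.0% of all shared regions. WNT5A had the nearest site and also the only group of several: 3 sites on the minus strand, 1 reading TTATCT at 55541546 to 55541551 and 2 reading CTATCT, starting 21 and then 10 bp further on. A count of 3 or more was found in 8.78% of all shared regions. The WNT3 region at +47.2 kb and the WNT11 region each had a single site 10.5 and 14.5 bp from the centre.

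The other 2 regions stood apart in base composition. The WNT3 region at +10.7 kb had 64.0% GC and 16 CpG dinucleotides, and the WNT5B region 63.5% GC and 8 CpG. The other 6 lay between 41.0 and 54.5% GC with 0 to 5 CpG. The median over all shared regions was 44% GC and 2 CpG, and 2.22% of them reached 63.5% GC. With the WNT6 region, at 3.29 kb, they were the 3 regions nearest to a canonical transcript start of their own gene, at 3.78 kb for WNT3 and 0.555 kb for WNT5B. Their single GATA sequences were 56.5 bp from the centre, so in 100 bp windows 6 of 8 regions (75%) held a site, against 71.2% of all shared regions.

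**Figure D4:**
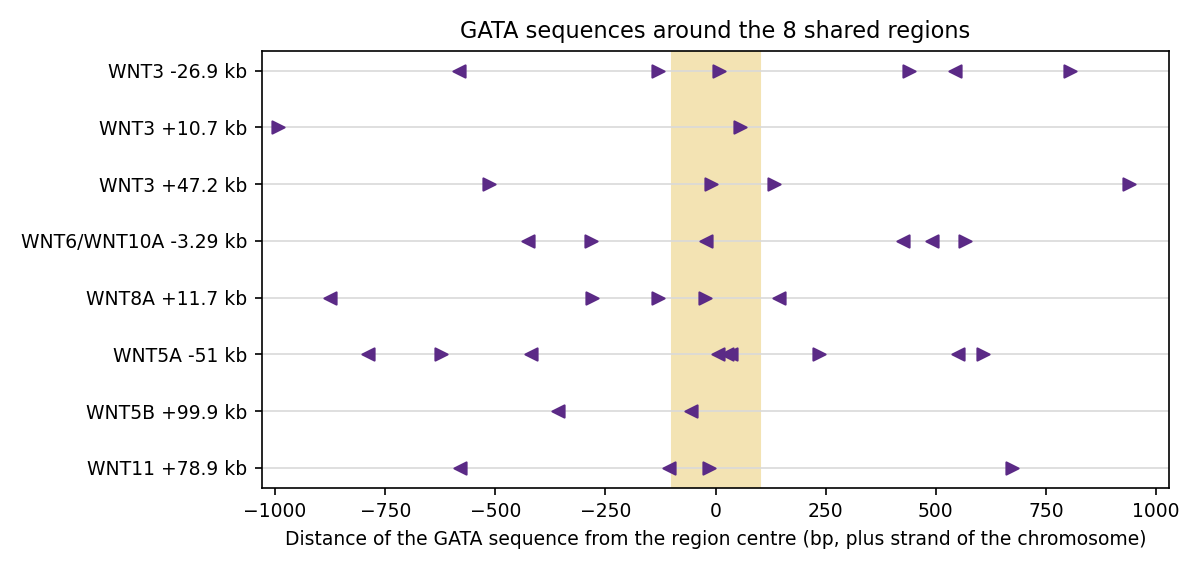
GATA sequences within 1000 bp of the centres of the 8 shared regions (horizontal axis, bp), 1 row per region, with arrowheads for the strand and the central 200 bp shaded. All 8 rows have a site in the shaded part, 3 of them at WNT5A, and those of WNT3 +10.7 kb and WNT5B are the farthest from the centre at 56.5 bp.

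Sequences of other factors were counted in the same windows on both strands, as a description of letters and not of binding. The TCF/LEF sequence, through which canonical WNT signals act, was searched as CTTTGAA or CTTTGAT or CTTTGTA or CTTTGTT. It was in 1 of 8 regions, that of WNT8A, 21 bp from the centre, against 22.7% of all shared regions. The SMAD element GTCTG was in 1, that of WNT5B, which had 2 copies, against 36.1%. The AP-2 sequence GCCNNNGGC was in 3, the WNT3 region at +47.2 kb and those of WNT5A and WNT11, against 4.21%. The TEAD sequence GGAATG was in 3, that same WNT3 region and those of WNT8A and WNT5A, which had 2 copies, against 18.9%. For both families, 3 of 8 has a Wilson interval of 13.7 to 69.4%, and 10 families were searched without a test.

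The SOX sequence, ACAAAGG or ACAATGG, was in 2 regions, that of WNT3 at +10.7 kb and that of WNT5A, against 13.3%. The E-box CACCTG was in 1, WNT3 at +10.7 kb, against 13.5%, and the GC box GGGCGG in 1, WNT3 at +47.2 kb, against 5.29%. The octamer ATGCAAAT, bound by POU factors, and the AP-1 sequence, TGACTCA or TGAGTCA, were in 0 of 8, against 5.10% and 5.64%, and a count of 0 of 8 allows a share of up to 32.4% by the Wilson interval. None of the 24 sites overlapped one of another family. The WNT6 region and the WNT3 region at -26.9 kb held only their GATA sequence out of the 10 families searched.

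RefSeq promoter windows on GRCh38.p14, from 250 bases before to 50 after a gene's start, were available for 9 of the 10 ligand genes, in 11 windows, and not for WNT11. None of the 11 held a GATA3 position of either replicate. Positions were not counted over all windows, so this 0 has no background beside it and does not show avoidance of promoters. Shared regions that close were rare in general: even within 1 kb of the 5′ end, only 2.45% of protein-coding genes reached 1 or more. A GATA sequence was in 0 of the 11, against 25% of all 35116 windows of that length.

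The remaining genes of the pathway were taken from lists by role. Of the other 9 WNT ligand genes 5 had a shared region, WNT1, WNT2, WNT2B, WNT9B and WNT10B, so that 12 of all 19 ligand genes (63.2%) had one, on 12 distinct regions, against the 47.7% of protein-coding genes. WNT9B lies head to head with WNT3 and had the same 3 regions, and WNT1 and WNT10B are neighbours with the same one. For WNT2 the region, at 117349857 in replicate 1 and 117349851 in replicate 2 on chromosome 7, lay 26.7 kb upstream. WNT2B had 2 regions.

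Among the genes that release and receive WNT proteins, 17 of 31 (54.8%) had a shared region, against 47.7% of all protein-coding genes. Both genes for secretion had one, WLS with 2 and PORCN, which attaches the lipid, with 1. Of the 10 Frizzled receptor genes 6 had one, and FZD2, FZD4, FZD6 and FZD7 had 3 each. A count of 3 or more was found at 5.94% of protein-coding genes. Of 6 co-receptor genes 5 had one, with 2 at ROR1 and 2 at ROR2, receptors for WNT5A. The region nearest to ROR2 was 4.76 kb downstream of its 5′ end, and LRP5 was the gene with 0. The nearest regions of ROR1 and RYK were 147 and 119 kb from the 5′ end, beyond the limit of 100 kb but inside the gene body. Of 13 secreted inhibitors 4 had one, with 3 at FRZB, 2 at DKK2 and 1 each at SFRP1 and SFRP5. The nearest region to FRZB, at 182866848 in replicate 1 and 182866820 in replicate 2 on chromosome 2, was at -0.197 kb from its 5′ end, closer than any region of the 10 ligand genes to theirs. This holds for 5′ ends of genes only, since the WNT5B region was 0.111 kb from the start of a WNT5B transcript.

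The counts for single genes rest on 2 replicates of 1 condition and on calls without a height, so genes with 1 region each could not be ranked against each other. The extent of a gene entered the rule, and WNT5B at 117 kb and WNT3 at 70.6 kb were the longest of the 10.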

How the data were processed

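H1 hESCs were analysed by GATA3 ChIP-seq in 2 replicates. According to the methods, reads were trimmed with cutadapt, aligned to hg38 with bowtie, cleared of duplicates with Picard and of multiply mapped and blacklisted reads, and peaks were called with MACS2 (q 0.05) in each replicate against its own input. The authors deposited 1 position per peak (start equal to end in every line) and a gene name. How a peak became a position, and whether bases count from 0 or 1, is not given in the sources used here, so coordinates are as deposited. The lists hold more positions in replicate 1, and fewer in replicate 2, than the peaks the methods state, for a reason not given in the sources used here, so a call in a single replicate may depend on which list was deposited. Duplicate lines were counted once and scaffolds left out.

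Ligand genes and pathway lists were chosen with earlier results of these data known. The classes were WNT3, WNT3A, WNT6, WNT7A, WNT8A and WNT10A (canonical) and WNT4, WNT5A, WNT5B and WNT11 (noncanonical). All members are named, and in each pathway list the genes with most regions, all those with a region for ligands and inhibitors. The centre of a shared region was the midpoint of the replicates' mean positions, and a region belonged to a gene when any of its positions did. Genes were those of GENCODE release 44, and introns those of the canonical transcript. Sequence was read from hg38. No test was made, since there was 1 ChIP condition. Wilson intervals (95%) take in counting error alone. Gene assignment and motif search were tested on simulated data. Python 3.11.15, numpy 2.4.6, scipy 1.17.1, pysam 0.24.0 and matplotlib 3.10.9 were used.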

Additional observations from a re-analysis of the deposited data

How the results depend on the processing

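No paired analysis was possible because the input samples have no file analysed here and no test compared groups. Distances from canonical transcript starts, and motif families in other windows, were added after seeing the data. Of 54 values under alternatives, 37 stayed within their spread or within 1.5 times the main count, 12 moved and 5 changed sign. The causes were not tested.

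The number of ligand genes with a shared region fell from 7 to 4 with a limit of 10 kb and to 3 with the authors' symbols alone, and was 7 to 8 with 1 replicate at a time. The 8 regions became 5 at 10 kb, 16 at 200 kb and 4 by symbol, and 11 to 14 positions with 1 replicate at a time. The canonical minus noncanonical share, -8.33 percentage points, reversed to 16.7 with positions shared within 50 bp, where WNT5A was lost, to 25 at 10 kb and to 41.7 at 50 kb. It was -33.3 at 200 kb, -42.9 with WNT4 as canonical, and -33.3 to -8.33 with 1 replicate at a time, the lower value from replicate 2, which alone had a WNT4 position. The difference in regions per gene, 0.25, reversed to -1.33 when regions were given only to the nearest 5′ end at any distance and to -0.143 with WNT4 as canonical. It was 0.75 at 50 kb, 1 at 200 kb and 0.333 to 0.833 with 1 replicate at a time. The share with a GATA sequence, 100.0%, was 78.6% of the positions of replicate 1, against 77.3% of all its positions, and 90.9% of those of replicate 2, against 77.5%, and 7 to 8 of the 10 motif families were found in any window size.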
